A study of Mus musculus with 15 samples.

Results

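Tarsal joints that had been inflamed for 3 to 4 weeks in collagen-induced arthritis (CIA) were compared with joints of control mice, over all genes measured on the arrays. The samples were chosen by their labels alone, and are 6 of the 15 arrays of the study: 3 joints with a clinical score of 3 and a disease duration of 3 to 4 weeks (animals 54, 29 and 60) and 3 joints of controls that had not been induced (controls 1, 2 and 3). The comparison covers 19938 genes, each read from 1 probe set that names a single gene.

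All mice were of the strain DBA/1JBom. In the males given arthritis, chicken collagen type II had been injected into the skin in complete Freund's adjuvant and once more in incomplete Freund's adjuvant, and their ages were not given in the sources used here. When taken, all 3 joints carried the highest clinical score. The labels give the controls as not induced and the array methods as non-immunised, while the animal methods describe a control group that received both adjuvants without collagen, so that an exposure of these 3 controls to adjuvant is not settled. The other groups of the study enter the estimate of the spread and a few comparisons: joints of day 0 to 3 (animals 16 and 18, as the array of animal 57 had failed quality control), joints of week 1 to 2 (animals 33, 43 and 52), both at a score of 3, and joints in which an earlier score of 3 had declined (animals 15, 21 and 10). Each sample was the whole tarsus of 1 mouse, unpooled, from which skin, fur and visible muscle had been removed at dissection while the other soft tissues were kept. In such bulk tissue, fewer cells of a type and less RNA per cell cannot be told apart.

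In CIA an immune response against cartilage collagen brings neutrophils and macrophages into the synovium and the tissue around the tendons. Osteoclasts, the multinucleated cells that dissolve bone with acid and cathepsin K, and metalloproteinases from synovial fibroblasts and macrophages break down bone and cartilage, while periosteal cells lay down new matrix that can pass through cartilage to bone. Joints at week 3 to 4 therefore can hold breakdown and repair side by side, together with whatever muscle, fat, tendon and skin stays on the bone.

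Values are log2 levels after robust multi-array averaging (RMA), and a change is the mean of the 3 arthritic joints minus the mean of the 3 controls on that scale. The median level of the 6 arrays lay between 6.29 and 6.4, whereas the SD over genes was 1.56, 1.48 and 1.65 in animals 54, 29 and 60 and 1.46, 1.22 and 1.41 in controls 1, 2 and 3, so that each arthritic array had a wider range than each control. Changes after giving every array 1 median and 1 SD are given where they differ. Over all genes the median change was -0.09. The root mean square distance from the control mean was 0.476, 0.435 and 0.619 in animals 54, 29 and 60, against 0.449, 0.545 and 0.474 for each control measured from the other 2, so that animal 60 alone lay farther out than every control. Letter codes in the array names, whose meaning was not given, put animal 54 with the joints of the first 2 weeks and animals 29 and 60 with the declining joints. The controls carry no code, so code and control status cannot be told apart.

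Of 19938 genes, 191 rose (0.958%) and 118 fell (0.592%) in week 3 to 4 at an adjusted p under 0.05, together 1.55% of all genes. The genes that rose had a median log2 change of 1.23 and those that fell one of -0.95, and 190 of the 309 differed by at least 2-fold. All 3 joints lay above all 3 controls in 2086 genes (10.5%) and below them in 3075 (15.4%), and 656 genes (3.29%) differed by at least 2-fold at an unadjusted p under 0.05, of which 529 were higher. The number of calls moved with single arrays, of the 2 groups compared and of the others. Leaving out animal 60, the joint farthest from the controls, left 0 genes called by limma (2604 at an unadjusted p under 0.05, lowest adjusted p = 0.0908), and without animal 29 or 54 there were 35 and 40. Without control 1 the count was 1416, without control 2 it was 98 and without control 3 it was 160. Arrays that enter only the spread moved the count too. It was 89 without animal 16 or 18 of day 0 to 3, and 135, 89 and 133 without animals 33, 43 and 52 of week 1 to 2. Without the declining joints 15, 21 and 10 it was 238, 472 and 1427. Every one of the 309 genes kept its direction in each of these fits. For arrays outside the 2 groups this was fixed beforehand, as they do not enter the change. Giving all arrays 1 SD turned the split of higher and lower calls from 191 and 118 to 165 and 178, and a second quantile normalisation to 217 and 233.

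**Figure D1:**
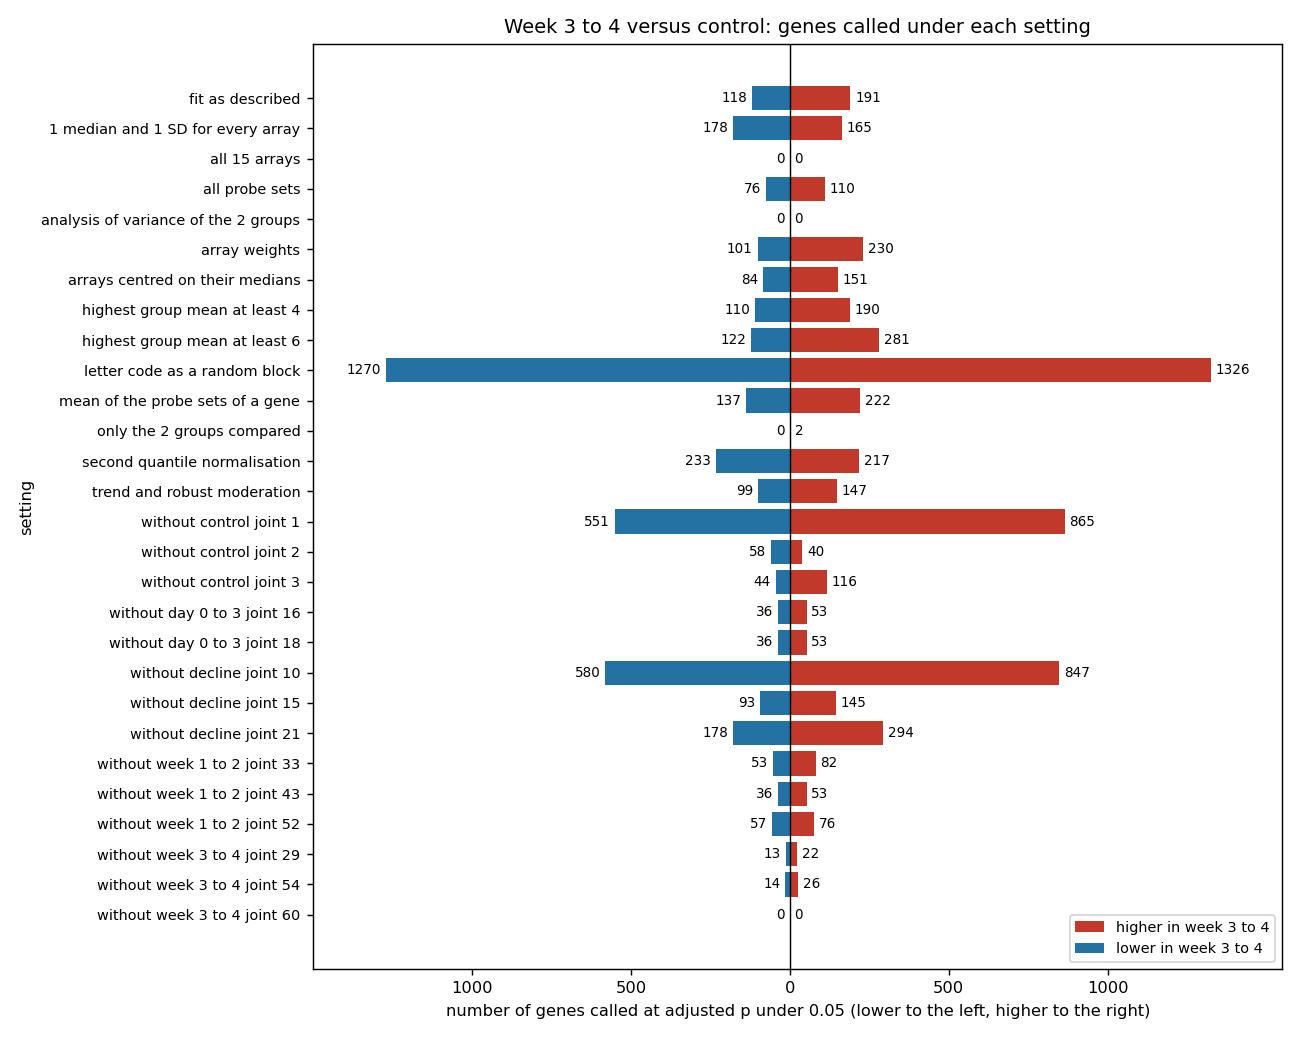
Number of genes called in week 3 to 4 against control under each setting, with genes lower in arthritis drawn to the left of 0 and genes higher drawn to the right. The bars shrink to 0 and 0 when animal 60 is left out, when all 15 arrays enter and in an analysis of variance of the 2 groups, and exceed 500 on each side without control 1, without declining joint 10 and with the letter code as a random block.

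Genes of matrix breakdown held the largest rises of the 191, those of Mmp13 and Ctsk. Mmp13, collagenase 3, which cuts fibrillar collagen of cartilage and bone, and Mmp3, stromelysin 1, which cuts proteoglycans and activates other metalloproteinases, both carry a perfect AP-1 heptamer and a TATAAA box in the 120 bases before their annotated start. AP-1 (Fos and Jun dimers) is a known regulator of both genes, and the stretches are shown for that reason, in RefSeq sequence of GRCm38.p6 (chr9:7272394-7272513 and chr9:7445702-7445821, both plus strand), with the matches in capitals.
Mmp13: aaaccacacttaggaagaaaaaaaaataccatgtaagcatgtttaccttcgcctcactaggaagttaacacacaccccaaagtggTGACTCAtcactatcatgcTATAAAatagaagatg
Mmp3: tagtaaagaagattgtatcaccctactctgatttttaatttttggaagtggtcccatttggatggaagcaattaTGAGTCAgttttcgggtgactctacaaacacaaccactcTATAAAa
The heptamer begins at -35 in Mmp13 and at -46 in Mmp3, counted from the base before the annotated start. The letters TATAAA begin at -16 and -7, and their use as a core promoter element was not tested. Searched as TGAGTCA and TGACTCA, which covers both strands, it stood in 5.2% of 32851 promoter windows of 300 bases and in 8 of the 119 windows (6.72%) of genes called at least 2-fold higher, so that these genes held it at about the share of all windows. TATAAA, counted with its complement TTTATA, stood in 13.6% and 7.56%.

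Mmp13 was at 10.92, 10.20 and 11.04 in animals 54, 29 and 60 and at 8.75, 6.79 and 7.24 in controls 1, 2 and 3. All 3 arthritic joints lay above the highest control, and control 1 stood apart from the other controls. The rise was 8.74-fold (log2 change 3.13, standard error 0.48, adjusted p = 0.0158). Mmp3 was at 9.51, 8.91 and 10.61 against 8.44, 6.71 and 6.60, a rise of 5.37-fold (log2 change 2.43, standard error 0.54, adjusted p = 0.045) with animal 60 highest. Of 22 metalloproteinase genes measured, 5 rose and none fell. The other 3 were Mmp9, the gelatinase of neutrophils and osteoclasts, with 3.01-fold, Mmp2, the gelatinase of fibroblasts, with 2.92-fold, and Mmp14, a membrane protease that activates pro-MMP2, with 1.97-fold. For Mmp2 and Mmp14 the adjusted p was above the threshold once the arrays had 1 SD (0.0618 and 0.124). The median of the whole list was 0.21 (0.05 without animal 60, 0.33 without animal 54, 0.12 without control 1 and 0.00 without control 3), and Mmp8 (0.79, adjusted p = 0.349) and Mmp12 (0.56, adjusted p = 0.363) were not called. Without animal 60 the changes of Mmp13 and Mmp3 were 2.97 (adjusted p = 0.105) and 1.96 (adjusted p = 0.212).

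Among 6 inhibitors of metalloproteinases, Timp1 alone rose, from 7.79, 7.76 and 7.23 in the controls to 9.62, 9.23 and 10.88. It encodes a secreted inhibitor induced in inflamed and fibrotic tissue, and the rise was 4.97-fold (standard error 0.40 on the log2 scale, adjusted p = 0.0232, and 0.105 without animal 60). Timp4 was at 6.50, 6.64 and 6.32 against 7.72, 7.16 and 7.10 (log2 change -0.84, adjusted p = 0.0741). Timp2 and Timp3 differed by 0.22 and 0.16. None of 31 ADAM and ADAMTS proteases, which shed membrane proteins and cut aggrecan, was called, and their median was 0.05.

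Osteoclast genes included further large rises. Ctsk, cathepsin K, which digests bone collagen in the acid space beneath the osteoclast, was at 10.78, 10.23 and 11.25 in animals 54, 29 and 60 and at 9.07, 6.57 and 8.01 in the controls. The joints did not overlap with the controls, although the controls spread over more than 2 log2 units, and the rise was 7.31-fold (log2 change 2.87, standard error 0.46, adjusted p = 0.0175). Acp5, tartrate-resistant acid phosphatase, was at 10.02, 9.63 and 9.94 against 8.12, 6.95 and 8.53, which gave 3.99-fold (log2 change 2.00, standard error 0.31, adjusted p = 0.016). Atp6v0d2, the pump subunit that also takes part in osteoclast fusion, was at 9.93, 8.91 and 9.72 against 7.63, 6.69 and 6.79, which gave 5.59-fold (log2 change 2.48, standard error 0.39, adjusted p = 0.016). In each of the 3 genes animal 29 was the lowest arthritic joint and control 2 the lowest control. Of 35 osteoclast genes 7 rose and none fell, the others being Mmp9, Mmp14, the creatine kinase gene Ckb (2.50-fold) and the sodium-proton exchanger gene Slc9b2 (1.97-fold). All 3 joints lay above all controls in 14 of the 35 and below in none, against 10.5% and 15.4% of all genes. The median change was 0.38. Regulators of the lineage were not among the calls. Tnfsf11, which encodes RANKL, was at 7.51, 7.46 and 7.42 against 7.33, 7.58 and 7.0, and its decoy receptor Tnfrsf11b at 6.81, 6.74 and 6.81 against 6.98, 7.65 and 6.86. Neither was called (adjusted p = 0.544 and 0.234), nor were Nfatc1, the master transcription factor of the lineage (0.43, adjusted p = 0.182), and the fusion gene Dcstamp (0.48, adjusted p = 0.242). Without animal 60, Ctsk, Acp5 and Atp6v0d2 differed by 2.62, 1.96 and 2.38 (adjusted p = 0.115, 0.105 and 0.105). Without animal 54 none of the 35 was called, and 26 of all 19938 genes were called higher. Without control 2 the counts were 3 of the 35 and 40 of all genes.

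Among genes of acid secretion and lysosomal proteases, the 1 call beyond the osteoclast list was Atp6v1b2. Among 22 genes of the vacuolar proton pump, Atp6v0d2 and the catalytic-sector gene Atp6v1b2 (2.95-fold, adjusted p = 0.0294) rose, 12 lay above all controls (10.5% of all genes did) and the median was 0.84, or 0.47 without control 2. Of 19 cathepsin, legumain and cystatin genes only Ctsk was called. Ctss, the macrophage cathepsin of antigen presentation, was at 9.49, 8.99 and 10.01 against 8.89, 7.55 and 8.55, and with a log2 change of 1.17 it did not pass (adjusted p = 0.075). Ctsh (1.52, adjusted p = 0.0759) and the inhibitor gene Cstb (1.16, adjusted p = 0.0601) did not pass either. Macrophages also carry pump and lysosomal genes. The mean level of 29 macrophage genes was 7.62, 7.32 and 7.94 in animals 54, 29 and 60 and 7.30, 6.69 and 6.88 in the controls, and that of the 35 osteoclast genes 7.64, 7.42 and 7.67 against 7.16, 6.75 and 7.02. The part of either cell type in these rises was not tested.

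**Figure D2:**
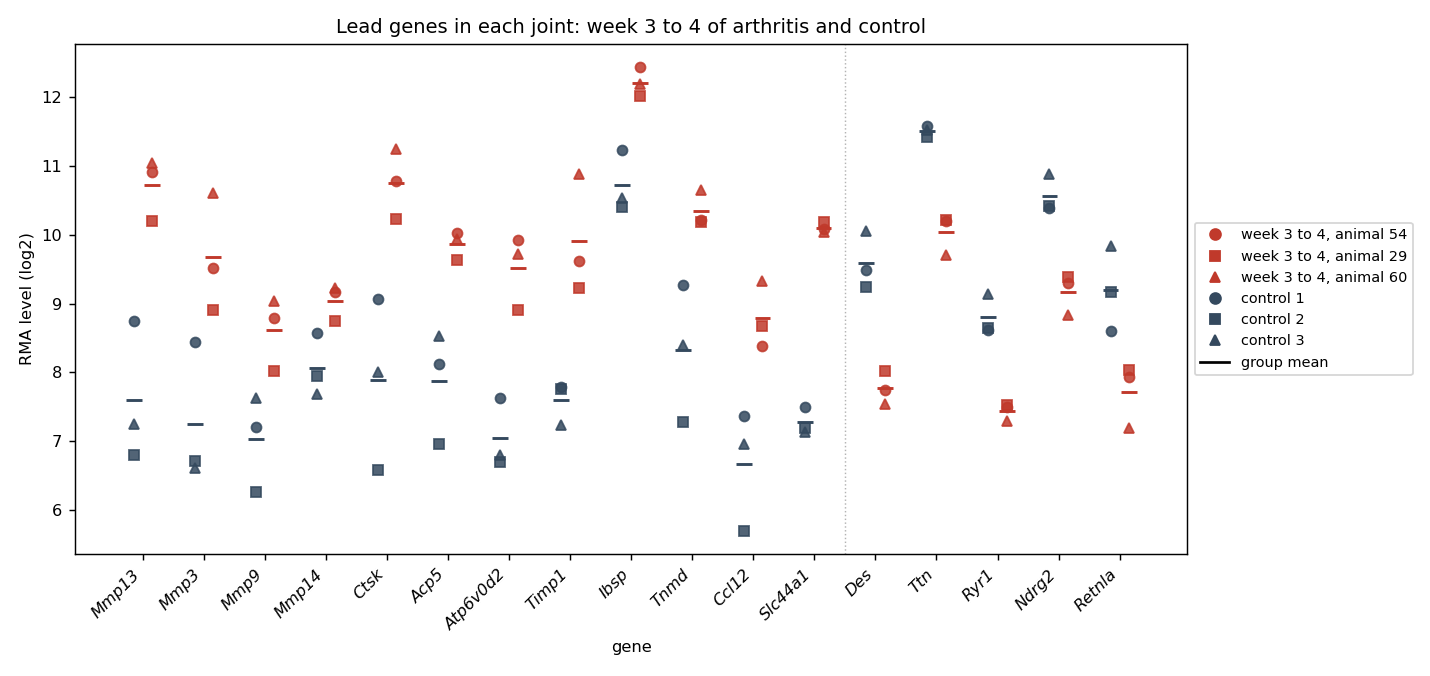
Log2 RMA levels of 12 genes that rose and 5 that fell (right of the dotted line) in week 3 to 4 against control, with each joint as a point, arthritic joints in red and controls in dark blue, and group means as short lines. In every gene drawn the 3 arthritic joints and the 3 controls do not overlap. For the genes named as largest rises and falls this was a condition of the choice and is no further result. The controls of Mmp13, Ctsk and Mmp3 spread widely and those of Slc44a1 and Ttn narrowly.

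Bone-forming genes were raised in part. Ibsp, bone sialoprotein, a mineral-binding protein of osteoblasts and hypertrophic cartilage, was at 12.44, 12.02 and 12.19 in animals 54, 29 and 60 and at 11.23, 10.41 and 10.53 in the controls. The lowest arthritic joint stood above the highest control. The rise was 2.81-fold (log2 change 1.49, standard error 0.21, adjusted p = 0.0118), and it was called in 13 of 14 fits that left out 1 array, the exception being animal 60 (1.5, adjusted p = 0.0908). With 1 SD for every array it became 0.85 and was no longer called (adjusted p = 0.134). Sparc, osteonectin, rose 2.04-fold and lost its call in the same way (0.24, adjusted p = 0.622). Of 32 osteoblast and mineralisation genes these 2 rose and none fell, 13 lay above all controls and the median was 0.37. Over all genes 10.5% lay above all controls. Postn, periostin of the periosteum, was at 10.43, 10.43 and 11.38 against 10.42, 7.54 and 7.58. Control 1 thus reached the level of the arthritic joints, and with a log2 change of 2.23 the gene was not called (adjusted p = 0.067). Likewise not called were Cthrc1 (1.68, adjusted p = 0.0528), the mineralisation inhibitor gene Mgp (1.25, adjusted p = 0.0528) and the type I collagen genes Col1a1 and Col1a2 (0.90 and 0.99, adjusted p = 0.0923 and 0.0542). The phosphatase gene Alpl differed by 0.25. Among 18 osteocyte genes none was called, with Dmp1 at 0.79, Phex at 0.85 and the WNT inhibitor gene Sost at -0.55 (7.01, 7.10 and 6.64 against 7.57, 7.55 and 7.28, adjusted p = 0.123).

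The cartilage list as a whole lay near the median of all genes. Of 33 genes of cartilage matrix and chondrocytes 8 lay above all controls and 7 below, against 10.5% and 15.4% of all genes. The median was -0.06, close to the -0.09 of all genes, and does not show the genes apart on either side. Of the 33, 1 was called, against 1.55% of all genes. The 1 gene was Edil3, an integrin ligand deposited in matrix, at 6.91, 7.17 and 7.47 against 6.02, 5.2 and 5.86 (2.81-fold, adjusted p = 0.0498). Col2a1, the chain of type II collagen, whose chicken form was the antigen, was at 7.72, 7.75 and 7.45 against 7.59, 7.44 and 7.34 (log2 change 0.18, standard error 0.18, adjusted p = 0.515). Acan, aggrecan, and Hapln1, which links it to hyaluronan, had changes of 0.72 and 1.13 that did not pass (adjusted p = 0.145 and 0.0711), and the cartilage lectin gene Clec3a one of -1.43 (adjusted p = 0.142). In the list of hypertrophic cartilage, 4 of 23 genes rose, of which Mmp13, Mmp9 and Ibsp are shared with the lists above and the fourth was the sulphate transporter gene Slc26a2 (2.72-fold, adjusted p = 0.0475). Lubricin, Prg4, the surface lubricant of synovium and cartilage, stood at 12.62, 12.21 and 12.57 against 12.67, 12.34 and 12.50.

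Tendon and fibrous matrix genes included rises as well. Tnmd, tenomodulin, a membrane protein of tendon cells, was at 10.22, 10.19 and 10.65 in animals 54, 29 and 60 and at 9.27, 7.28 and 8.40 in the controls, a rise of 4.10-fold (log2 change 2.04, standard error 0.39, adjusted p = 0.0296, and 0.155 without animal 60). With Col12a1 (2.80-fold), a collagen on the surface of fibrils, and Tnc, tenascin C (1.97-fold), 3 of 19 tendon genes rose. Of the 19, 8 lay above all controls, as did 10.5% of all genes. The median was 0.67, or 0.20 with 1 SD for every array, 0.30 after a second quantile normalisation and 0.39 without control 3. Of 37 collagen chain genes Col12a1 and Col5a2 (1.96-fold) rose, and of 16 small leucine-rich proteoglycans Lum, lumican (2.65-fold, adjusted p = 0.0296). With 1 SD the adjusted p of Lum was 0.105 and that of Col12a1 0.0576. Kera, keratocan, was at 9.87, 9.83 and 10.21 against 9.02, 6.19 and 8.16 and missed the threshold (2.18, adjusted p = 0.0528), as did the lysyl hydroxylase gene Plod2 (1.69, adjusted p = 0.0528). Fap, fibroblast activation protein, a protease of activated synovial fibroblasts, rose 2.96-fold (9.82, 9.46 and 9.85 against 8.78, 7.89 and 7.76, adjusted p = 0.0202, and 0.117 without animal 60). It was the 1 rise among 26 synovial fibroblast and lining genes, in which the chloride channel gene Clic5, known also from muscle and other tissues, fell to 8.02 in each of the 3 joints from 9.43, 8.76 and 8.76.

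Inflammatory genes were mostly not called, as was true of all genes, of which 1.55% were called. Among 39 interleukins and their receptors and 26 genes of the TNF superfamily none passed, and the medians were -0.02 and -0.05. Il6 was at 5.03, 4.17 and 5.30 in animals 54, 29 and 60 and at 6.07, 5.33 and 3.74 in the controls, Il1b at 6.58, 6.36 and 7.37 against 6.92, 6.73 and 6.31, and Tnf at 6.21, 5.67 and 6.10 against 6.17, 6.37 and 6.16. In all of them the groups overlapped. The interval of the difference ran from -1.68 to 1.25 for Il6 (95%), so that a 2-fold change in either direction lies within it. Ptgs2, which encodes the inducible cyclooxygenase, differed by -0.16 (adjusted p = 0.723), while Pla2g4a, the cytosolic phospholipase that releases arachidonic acid, rose 1.94-fold (6.94, 6.87 and 7.57 against 6.20, 5.90 and 6.41, adjusted p = 0.0407). Of 33 chemokines 1 rose. This was Ccl12, which draws monocytes into tissue. Its level was 8.38, 8.67 and 9.33 against 7.36, 5.69 and 6.95 (4.37-fold, log2 change 2.13, standard error 0.45, adjusted p = 0.04, and 0.197 without animal 60). None of 21 chemokine receptors, 20 complement genes and 19 acute phase genes was called.

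Saa3, which encodes an acute phase protein made outside the liver, ranged widely over the inflamed joints. It was at 8.41, 9.21 and 11.31 in animals 54, 29 and 60 and at 8.22, 5.93 and 6.28 in the controls. Animal 60 alone exceeded every control by more than 2 log2 units, and a mean change of 2.83 did not pass (standard error 0.76, adjusted p = 0.0728). Camp, the neutrophil peptide cathelicidin, had the opposite order among the joints, with 11.53, 11.29 and 10.23 against 8.85, 8.11 and 9.57 (2.18, adjusted p = 0.0841). The calgranulin genes S100a8 and S100a9, which mark neutrophils, differed by -0.03 and 0.34. Of 23 neutrophil genes only Mmp9, an osteoclast gene as well, was called.

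Macrophage genes lay higher, with 2 of 29 called higher against 0.958% of all genes. Without animal 54 none of the 29 was called, and 26 of all genes were called higher. Ms4a7, a membrane protein gene of macrophages, rose 3.45-fold (8.71, 8.71 and 9.07 against 7.79, 6.52 and 6.81, adjusted p = 0.0252, and 0.145 without animal 60) and Ms4a6b 2.95-fold (7.47, 7.59 and 7.71 against 6.31, 5.35 and 6.44, adjusted p = 0.0489). These were the 2 calls among 29 macrophage genes, of which 12 lay above all controls and 2 below, with a median of 0.57. Over all genes 10.5% lay above and 15.4% below. The scavenger receptor gene Msr1 (1.42, adjusted p = 0.0652) and the pore protein gene Mpeg1 (1.39, adjusted p = 0.0883) did not pass, and Csf1r, the receptor that defines the lineage, differed by 0.43. For alternatively activated macrophages the 1 call went the other way. Retnla, a secreted product of such cells, was at 7.93, 8.03 and 7.19 against 8.60, 9.17 and 9.83, a fall of 2.80-fold (log2 change -1.49, standard error 0.34, adjusted p = 0.0475, and 0.224 without animal 60). Cd163, the haemoglobin scavenger receptor gene, was at 5.91, 6.31 and 6.78 against 7.53, 7.32 and 7.02 without passing (adjusted p = 0.0763). Among 22 genes of Fc receptors and their signalling adaptors 9 lay above all controls, as did 10.5% of all genes. The median was 0.49 and none was called.

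Of 29 interferon-induced genes 3 rose. Rtp4, a chaperone of receptors that interferon induces, was at 9.16, 8.58 and 8.96 against 7.35, 6.92 and 7.10 (3.42-fold, standard error 0.30 on the log2 scale, adjusted p = 0.0207). The other 2 were Ifitm3 (1.88-fold), an antiviral membrane protein gene, and the RNA sensor gene Ifih1 (1.58-fold). Samd9l, an antiviral gene of the same kind outside the list, had been at 7.25, 7.21 and 7.45 in the controls and was at 10.01, 9.48 and 8.92, a rise of 4.48-fold (adjusted p = 0.0352). With 1 SD for every array Ifitm3 had a change of 0.19 (adjusted p = 0.526) while Rtp4 and Samd9l were still called. Without animal 60 Rtp4 and Samd9l differed by 1.74 and 2.44 (adjusted p = 0.117 in both). In lymphocyte lists the calls were falls of low-level genes. Cd27, a costimulatory receptor, was at 5.38, 5.13 and 5.18 against 5.91, 6.23 and 6.12 and was the 1 call among 29 T and NK cell genes. Fcer2a, the low-affinity IgE receptor, at 5.13, 4.86 and 4.66 against 5.41, 5.63 and 5.96, was that among 26 B and plasma cell genes. None of 20 genes of MHC class II and antigen presentation was called.

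Genes of protein synthesis, folding and turnover lay higher together. Of 33 cytosolic ribosomal protein genes 23 lay above all controls, as did 10.5% of all genes. Of the 33, 3 rose (Rps27l, Rpl30 and Rpl19), and the median was 0.78. Rps27l was at 10.48, 10.51 and 10.67 against 7.98, 8.02 and 9.24 (4.40-fold, adjusted p = 0.0346). Rpl41, outside that list, was at 12.71, 12.98 and 12.76 against 9.73, 9.65 and 10.85 (6.68-fold, adjusted p = 0.0202, and 0.106 without animal 60). The median was 0.71 for 33 secretory-pathway genes and 0.47 for 34 proteasome genes. With 1 SD for every array the ribosomal, secretory and proteasome medians were 0.08, 0.40 and 0.27, and after a second quantile normalisation 0.44, 0.33 and 0.22, so that their order depended on the scaling. Without control 2 they were 0.42, 0.38 and 0.24. The means of the ribosomal list were 11.26, 11.29 and 11.60 in animals 54, 29 and 60 and 10.67, 10.03 and 10.93 in the controls, so that control 2, the array of narrowest range, was lowest. In the secretory pathway Sec61b, a subunit of the channel into the endoplasmic reticulum, rose 4.33-fold (11.01, 10.79 and 10.18 against 8.05, 8.91 and 8.69, adjusted p = 0.0252). Other probe sets of Sec61b gave smaller log2 changes of 1.49 and 1.23, against 2.11 for the one used. Pdia4 rose 2.05-fold, though a second probe set of Pdia4 gave -0.54 (unadjusted p = 0.0954). The proteasome list had 2 rises, Psmc5 (1.94-fold) and Psmd14. Psmd14, the deubiquitinase of its lid, was at 8.67, 9.02 and 8.99 against 7.62, 7.74 and 7.53. Its rise of 2.39-fold (log2 change 1.26, standard error 0.16, adjusted p = 0.0118) was called in 13 of 14 fits that left out 1 array, the exception again being animal 60 (1.21, adjusted p = 0.0908). Of 48 oxidative phosphorylation genes 12 lay above all controls, as did 10.5% of all genes. The 1 call was a fall in Cox6a2, the muscle form of a cytochrome oxidase subunit. None of 41 cell cycle genes was called, although 12 lay above all controls, against 10.5% of all genes. Pcna differed by 1.07 (adjusted p = 0.0531) and Top2a by 1.04 (adjusted p = 0.151).

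**Figure D3:**
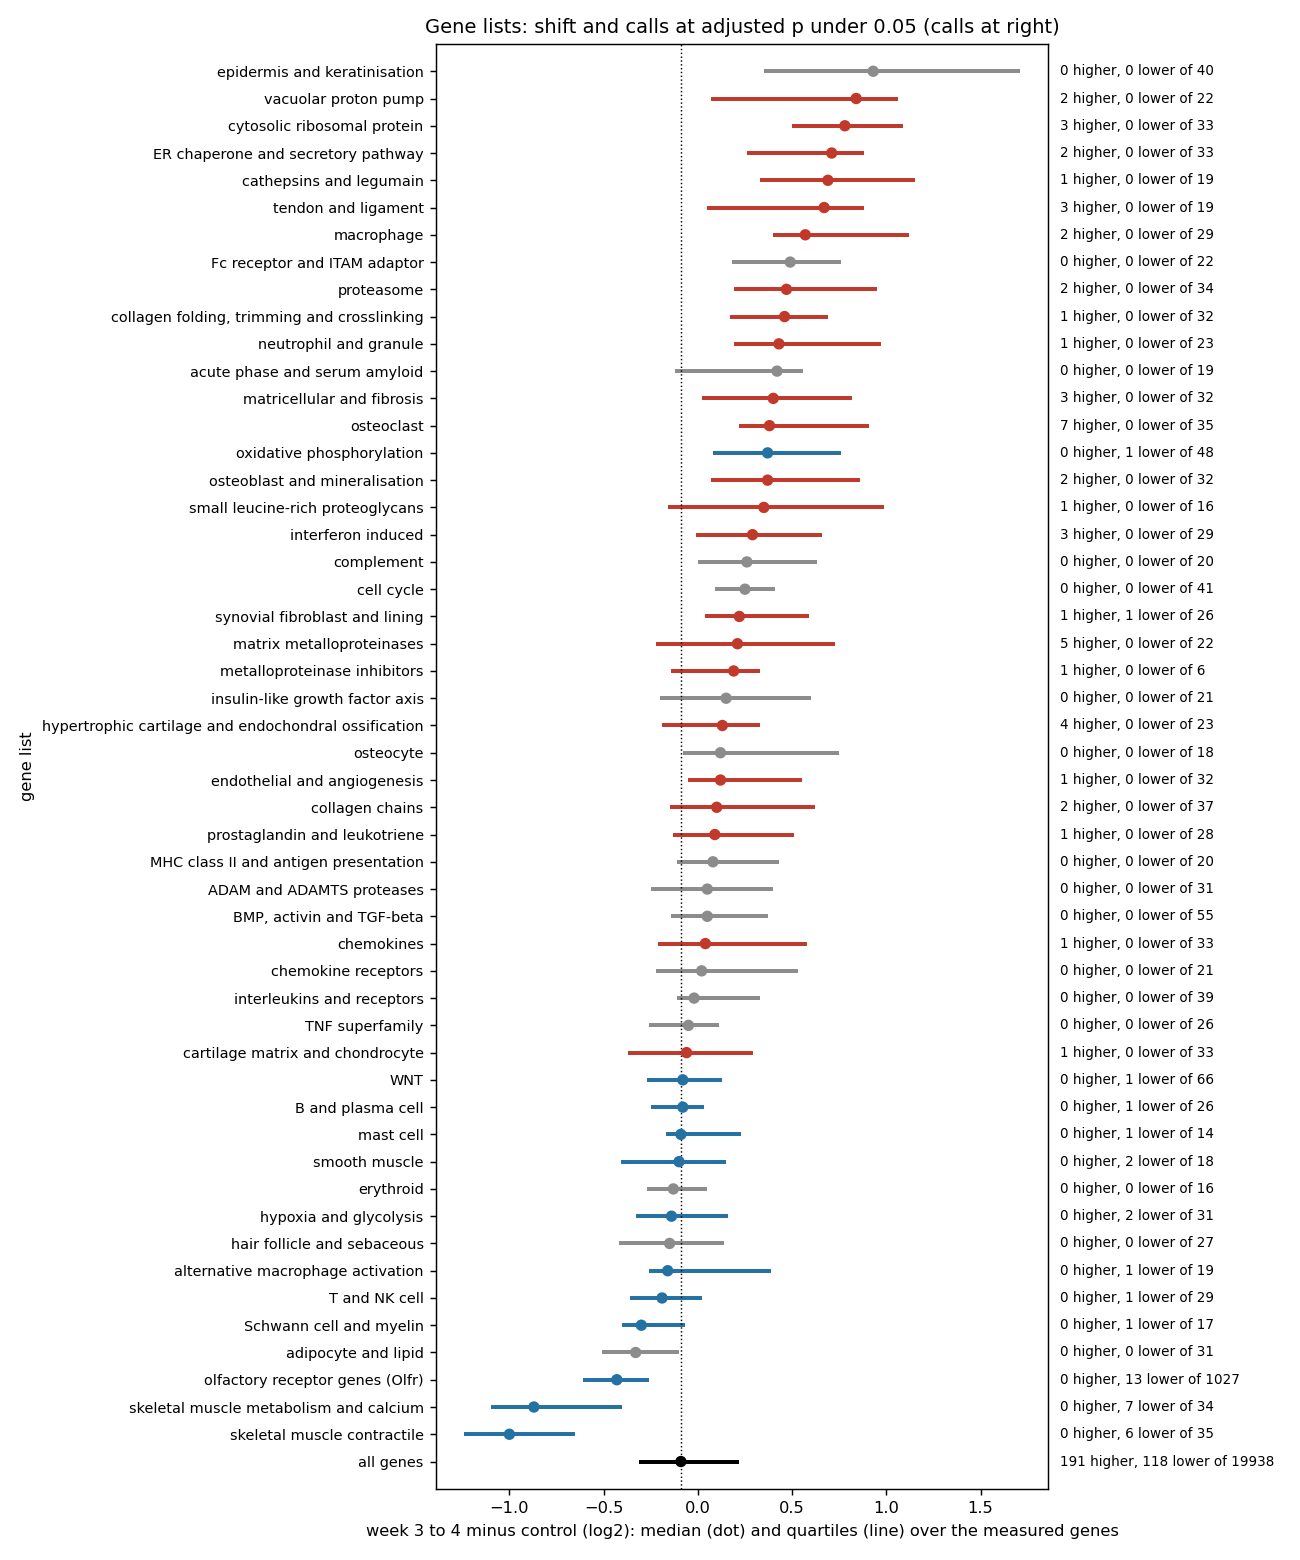
Change of each gene list in week 3 to 4 against control on the log2 scale, with the median as a dot, the quartiles as a line, the median of all genes as a dotted line and the number of calls at the right. Red lists hold at least 1 gene called higher, blue lists only genes called lower and grey lists none. Both skeletal muscle lists lie lowest, at -1.0 and -0.87, and the epidermal list, which has no call, lies highest at 0.93.

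The skeletal muscle lists held more falls than any other of the 50 lists, although visible muscle had been removed. The muscle genes Des and Nrap are shown with promoters because both carry the letters CAGCTG, an E-box of the kind that myogenic factors such as MyoD bind, close to their start. The stretches are RefSeq sequence of GRCm38.p6, chr1:75360172-75360291 on the plus strand and chr19:56390039-56390158 on the minus strand, with the E-box in capitals.
Des: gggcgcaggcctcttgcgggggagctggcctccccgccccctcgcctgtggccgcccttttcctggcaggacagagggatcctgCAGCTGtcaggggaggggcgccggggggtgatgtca
Nrap: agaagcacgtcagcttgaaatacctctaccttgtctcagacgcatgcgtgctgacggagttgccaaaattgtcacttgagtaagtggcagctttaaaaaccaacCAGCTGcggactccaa
It begins at -36 in Des and at -16 in Nrap. The letters read the same on both strands and stood in 16.3% of all 32851 windows, in 11 of 52 windows (21.2%) of genes called at least 2-fold lower and in 18 of 119 (15.1%) of those at least 2-fold higher. These are matches of letters, and binding was not measured.

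Des, desmin, the intermediate filament that ties muscle fibrils together, was at 7.74, 8.02 and 7.54 in animals 54, 29 and 60 and at 9.49, 9.24 and 10.05 in the controls. All joints lay more than 1 log2 unit below the lowest control, and the fall was 3.54-fold (log2 change -1.82, standard error 0.25, adjusted p = 0.0118). Srl, sarcalumenin of the sarcoplasmic reticulum, was at 7.28, 7.75 and 7.13 against 9.26, 8.79 and 9.85 (3.77-fold lower, adjusted p = 0.0118). Nrap, which joins fibrils to the membrane, was at 8.66, 8.86 and 8.21 against 10.21, 9.92 and 10.60 (3.17-fold lower, adjusted p = 0.0232). The giant spring protein Ttn had controls close together, at 11.58, 11.43 and 11.52, and was at 10.20, 10.21 and 9.71 in arthritis (2.76-fold lower, adjusted p = 0.0238). Animal 60 was lowest and animal 29 highest in each of these 4 genes. Without animal 60 the changes of Des, Srl, Nrap and Ttn were -1.71, -1.79, -1.48 and -1.30 (adjusted p = 0.0934, 0.0908, 0.144 and 0.145).

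Of 35 contractile genes 6 fell, none rose and 27 lay below all controls, against 0.592% and 15.4% of all genes, and the median was -1.0 (-1.37 with 1 SD for every array, -0.86 without animal 60). With 1 SD the number of falls was 18, without animal 54 it was 1 and without control 1 it was 13. Over all genes the falls in these fits were 178, 14 and 551. Beside Des and Ttn these were Neb, nebulin (2.55-fold lower), and the myosin heavy chains of slow and of 2 fast fibre types, Myh7 (2.44-fold), Myh2 (2.48-fold) and Myh1 (2.37-fold). The heavy chain of the fastest fibres, Myh4, was at 9.58, 10.63 and 10.56 against 11.40, 12.05 and 12.45 and missed the threshold (-1.71, adjusted p = 0.0533), as did the kinase gene Mylk4 (6.20, 6.83 and 6.85 against 8.40, 8.92 and 9.87, adjusted p = 0.0569). Of 34 genes of muscle metabolism and calcium handling 7 fell and 21 lay below all controls, with a median of -0.87. They included the calcium release channel gene Ryr1 (2.57-fold), the calcium pump gene Atp2a1 (2.38-fold), the calcium channel gene Cacna1s (log2 change -1.11), phosphofructokinase, Pfkm (2.43-fold), the ubiquitin ligase gene of muscle atrophy Fbxo32 (2.52-fold) and Ndrg2 (2.64-fold). Mstn, myostatin, which limits muscle growth, went the other way at 8.40, 8.14 and 7.49 against 7.06, 6.94 and 6.33 without passing (1.23, adjusted p = 0.132). Of the regulatory light chain Myl2 the groups overlapped, with 10.46, 10.69 and 9.95 against 10.26, 9.97 and 10.98. The mean of the contractile list was 8.79, 9.02 and 8.65 in animals 54, 29 and 60 and 9.64, 9.46 and 10.14 in the controls. The amount of muscle left on each joint was not recorded in the labels, and its part in these falls was not tested.

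Cmya5 (2.71-fold), Filip1 (2.76-fold) and Txlnb (2.76-fold) are expressed in muscle, and all fell, as did Fsd2 (3.12-fold). Pdk4, which fell 2.79-fold, encodes the kinase that shuts pyruvate out of oxidation. In the glycolysis list Pfkm and Aldoa, the aldolase of muscle (2.07-fold), fell. Of 18 smooth muscle genes Des, which both muscle types share, and Actg2 fell. The neuropeptide gene Npy was at 7.32, 7.05 and 7.25 against 8.27, 8.28 and 8.47 (2.19-fold lower, adjusted p = 0.0232), and Mbp, the myelin basic protein gene, was the 1 call among 17 Schwann cell genes (1.59-fold lower, adjusted p = 0.049). Of 31 adipocyte genes none was called but 13 lay below all controls, against 15.4% of all genes. Among them were Adipoq, adiponectin, at 10.45, 10.48 and 9.91 against 10.81, 11.20 and 10.88 (-0.69, adjusted p = 0.0753) and Plin1 at 6.66, 6.74 and 6.51 against 7.34, 7.24 and 7.28. Elovl6, a fatty acid elongase gene in that list, was at 7.44, 9.59 and 9.81 against 7.28, 5.75 and 7.16.

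Skin genes ran with the letter code of the arrays. The mean of 40 epidermal genes was 6.47, 9.05 and 8.97 in animals 54, 29 and 60 and 6.34, 6.47 and 8.49 in the controls, so that animals 29 and 60 and control 3 held high levels and the other 3 joints low ones. Over the coded arrays of all phases the mean was 5.86 to 6.47 in the 6 of the first code, animal 54 among them, and 8.75 to 9.69 in the 5 of the second code, which holds animals 29 and 60. Krt2, a keratin of the upper epidermis, was at 6.47, 11.08 and 11.30 against 5.70, 5.74 and 10.04, and Krt9, the keratin of the sole, at 4.86, 10.88 and 7.33 against 5.06, 5.74 and 11.49. Both have errors above 1 log2 unit. No epidermal gene was called and none separated the groups, although the median was 0.93 (0.61 without animal 60 and 1.83 without control 3). Without animal 54 the median was 1.82, and 2 of the 40 were called higher, as were 26 of all genes. The 10 genes with the widest range over the 3 joints of week 3 to 4 included Krt9, Krt2, Krt1, Mt4, Krtdap and Lce1a1. Skin had been cut away at dissection, and what remained of it was not recorded.

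**Figure D4:**
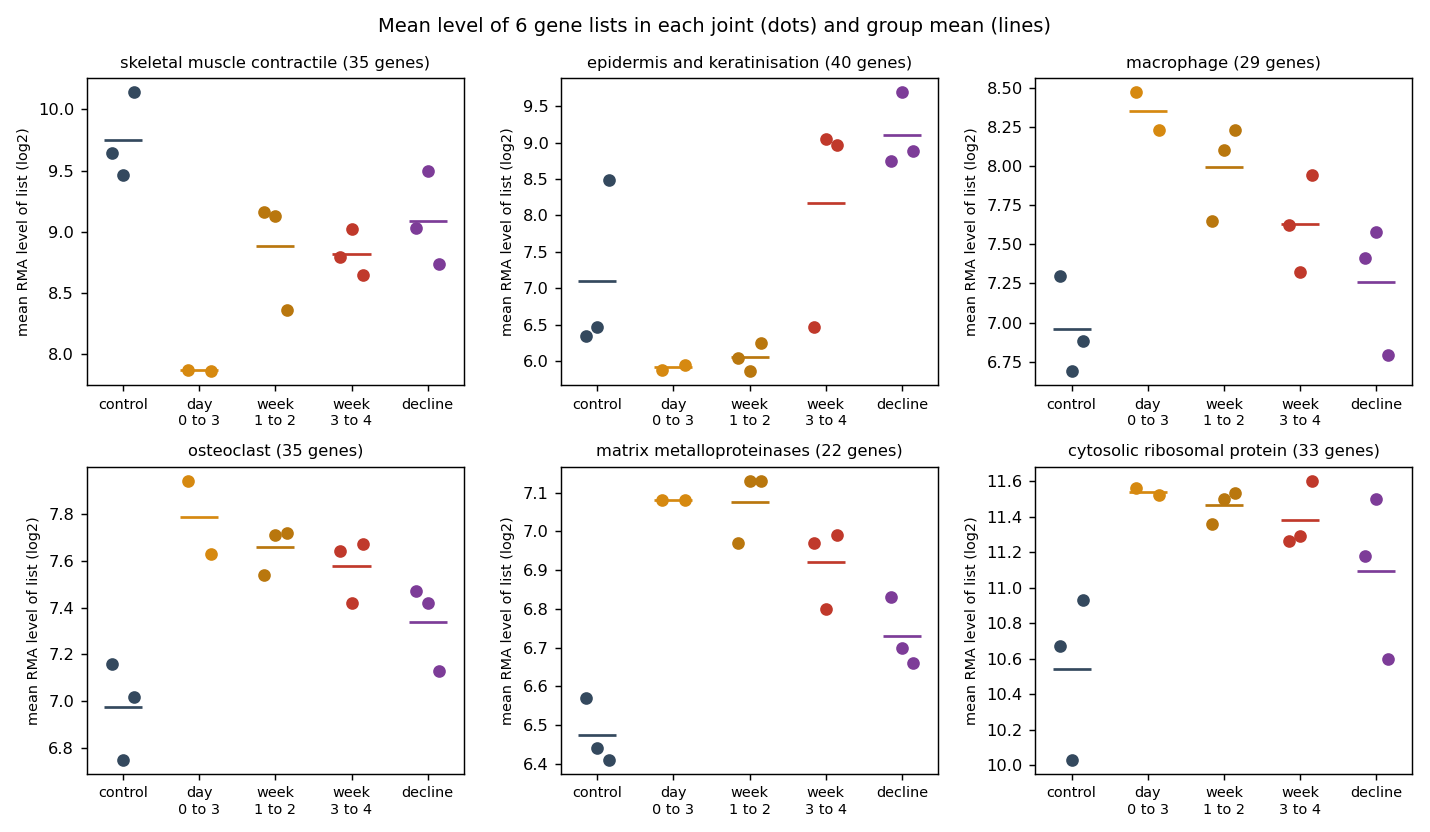
Mean log2 RMA level of 6 gene lists in each joint (dots) with the group mean (line), with controls at the left and the phases of disease after them. Vertical axes do not start at 0 and differ between panels. The week 3 to 4 joints lie below all controls for contractile genes and above them for osteoclast, metalloproteinase, macrophage and ribosomal genes, and the epidermal list splits animal 54 from animals 29 and 60.

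In growth factor pathways that steer bone formation calls were few, as over all genes, of which 1.55% were called. Counts this low tell little about these lists. Of 55 genes of BMP, activin and TGF-beta signalling none was called and the median was 0.05. Bmp2 was at 7.29, 7.10 and 7.76 against 7.85, 6.02 and 7.37, Bmp4 differed by 0.02, Bmp7 by -0.19 and Gdf5 by -0.23, and the procollagen protease gene Bmp1 by 0.48 (8.04, 7.80 and 8.30 against 7.70, 7.82 and 7.18, adjusted p = 0.146). Inhba, the activin A subunit gene, was at 8.75, 7.69 and 8.58 against 7.25, 7.75 and 6.74 (1.09, adjusted p = 0.16). Pmepa1, a TGF-beta target outside the list, rose 2.50-fold (9.28, 9.08 and 9.65 against 8.24, 8.18 and 7.64, adjusted p = 0.0175). Of 66 WNT genes 1 was called, the fall of Ndrg2 (9.30, 9.39 and 8.83 against 10.39, 10.42 and 10.89, adjusted p = 0.0153), a gene that stands in the muscle list too. The secreted inhibitors Dkk1 (0.10), Wif1 (-0.04) and Sfrp1 (0.23) overlapped with the controls, and Sfrp2, at 9.97, 10.17 and 10.22 against 9.51, 7.70 and 8.83, missed the threshold (1.44, adjusted p = 0.0513). Wls, which carries WNT proteins out of the cell, stands outside the list and rose 2.07-fold (adjusted p = 0.0346). None of 21 genes of the insulin-like growth factor axis was called, with Igf1 at 0.84 (adjusted p = 0.0926).

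The study had drawn up lists of its own on these arrays, so their direction is no independent evidence. In its list of tissue degradation 7 of 9 genes rose with a median of 2.00 (Mmp13, Ctsk, Mmp3, Timp1, Acp5, Mmp9 and Mmp14). Of 10 genes of sustained matrix, Col12a1 and Lum rose and 9 lay above all controls, with a median of 1.12. Among 16 genes near human arthritis loci Edil3, Col12a1 and Pla2g4a rose, 10 lay above all controls and the median was 0.69. Over all genes 10.5% lay above all controls. Of 13 BMP genes none was called, and of 6 WNT genes Ndrg2 alone, while the hypoxia factor gene Hif1a (9.62, 9.22 and 9.67 against 8.83, 7.76 and 8.12) did not pass (1.27, adjusted p = 0.0581).

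Of the 309 called genes 251 stood in no list. Slc44a1, a choline transporter gene, was at 10.09, 10.18 and 10.04 against 7.5, 7.19 and 7.13 (7.12-fold, log2 change 2.83, standard error 0.37, adjusted p = 0.0118, and 0.0908 without animal 60). It was also called when only the 2 groups were fitted (adjusted p = 0.00246), as 1 of 2 genes. A second probe set of Slc44a1 gave 0.39 (unadjusted p = 0.0721), so the rise rests on 1 probe set. Slitrk6, a neuronal membrane protein gene, was at 6.65, 6.43 and 7.35 against 4.26, 4.39 and 4.61 (5.25-fold, adjusted p = 0.0118). The signalling regulator gene Rgs2 was at 9.02, 8.88 and 9.30 against 7.80, 7.20 and 7.89 (2.70-fold, adjusted p = 0.0118). Among 27 called genes with more than 1 probe set, 55 of 58 other probe sets had the same sign and 44 an unadjusted p under 0.05. These probe sets are not independent, since Rpl21, Rpl9, Rpl19 and Cbx3 hold several each. The sign turned in Gmfg, Ndufb11 and Pdia4, and in Polr2h a rise of 2.08 stood beside 0.12. The other probe set was likewise small in Arf1 (0.23 beside 1.92), Hacd2 (0.45 beside 1.55), Tcea1 (0.35 beside 1.34) and Tsr3 (0.05 beside 1.13). Ube2d1, a ubiquitin-conjugating enzyme gene, fell 2.90-fold (8.73, 8.42 and 8.40 against 9.84, 10.05 and 10.26) and Bex1 2.65-fold. Angpt2, the vessel-destabilising angiopoietin, was the 1 rise among 32 endothelial genes (2.09-fold, adjusted p = 0.0484), and Ms4a2, a subunit of the high-affinity IgE receptor, the 1 fall among 14 mast cell genes (1.57-fold, adjusted p = 0.0485). The remaining large rises were Gm10561, the splicing factor gene Snrpe (6.35-fold) and the small nucleolar RNA gene Snord104 (5.24-fold).

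Part of the falls lay at low signal, at about the share of all genes. Of the 118 genes that fell 45 had a mean under 6 over the 6 arrays, as had 7522 of all 19938 genes. Of these 45 falls 12 were still called with 1 SD for every array, while all 73 at higher levels were. Olfactory receptor genes, which joints are not known to use, gave 13 of the 118 falls and make up 1027 of the 19938 genes. Among the 13 were Olfr993 (3.32, 3.41 and 2.82 against 4.09, 5.07 and 5.10) and Olfr1123. Their median over 1027 genes was -0.43, and -0.17 with 1 SD for every array and -0.25 without control 2. The microRNA genes Mir216a (4.66, 4.70 and 3.80 against 5.24, 5.49 and 5.40) and Mir361 (3.41, 3.92 and 3.59 against 4.44, 4.57 and 4.28) were also called lower at such levels, and a probe set of this kind reads the gene's transcript and not the mature strand.

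The 3 arthritic joints were not alike. Animal 60 was the highest joint in 138 of the 191 genes that rose and the lowest in 81 of the 118 that fell, and its median change in these genes was 1.39 and -1.05. Animal 29 was the lowest joint in 121 of the rises, with medians of 1.06 and -0.90, and animal 54 lay between, with 1.17 and -0.91. Against the mean of the other 2 joints, animal 54 had 44 genes at least 2-fold higher and 240 at least 2-fold lower. In the controls, control 2 was lowest in 119 of the 191 rises and control 1 highest in 109. The mean correlation of a joint with the other 2, over genes, which are not independent replicates, was 0.967 to 0.969 in week 3 to 4 and 0.911 to 0.930 in the controls.

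Week 3 to 4 was then set against the other phases directly, with the controls entering only the estimate of the spread. Against day 0 to 3, 3 genes were called (0.015% of all genes). Chad, chondroadherin, a leucine-rich protein of cartilage matrix, was at 10.62, 10.22 and 9.82 in week 3 to 4 and at 7.48 and 7.57 in animals 16 and 18, a difference of 2.70 (standard error 0.23, adjusted p = 0.000318). Controls were at 10.26, 10.59 and 10.65, and overlapped with the week 3 to 4 joints. Myl2 was 3.30 higher than at day 0 to 3 (7.03 and 7.09, standard error 0.36, adjusted p = 0.00398). The zinc transporter gene Slc39a14, which inflammation induces, was lower, at 6.18, 6.07 and 6.71 against 8.0 and 7.86 (-1.61, standard error 0.21, adjusted p = 0.0159), and at 6.47, 6.23 and 6.51 in the controls. For each of the 3 genes the difference from control was small at week 3 to 4 (-0.28 for Chad, -0.04 for Myl2 and -0.09 for Slc39a14, adjusted p = 0.393, 0.946 and 0.767). The count was 1 without either joint of day 0 to 3, 28 without animal 54 and 11 without animal 60.

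At an unadjusted p under 0.05 there were 1212 genes between these phases, 713 of them higher in week 3 to 4. The contractile list had 20 of 35 genes higher (median 0.93) and that of muscle metabolism 22 of 34 (median 1.04), among them Atp2a1 (2.07, adjusted p = 0.0678) and Myh1 (1.87, adjusted p = 0.0973). The macrophage list had 11 of 29 genes lower (median -0.60), the chemokine list 11 of 33 and the interleukin list 12 of 39. Lif, a cytokine of the interleukin 6 family, differed by -1.17 (adjusted p = 0.122), the hyaluronan synthase gene Has2 by -1.77 and Ms4a6d, a macrophage gene, by -1.66. In the epidermal list 31 of 40 genes were higher (median 2.50), but both day 0 to 3 arrays carry the first code, so that this difference runs with the code. Within that code the mean of the list was 6.47 in animal 54 against 5.88 and 5.95. Only 2 joints stand for day 0 to 3.

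Against week 1 to 2, 1 gene was called (0.00502% of all genes), the microRNA gene Mirlet7c-1. Its mature product let-7c-5p lies at chr16:77599672-77599693 on the plus strand (GRCm38.p6) and is given in RefSeq sequence with the seed, bases 2 to 8, in capitals.
let-7c-5p: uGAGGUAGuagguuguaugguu
The gene was at 3.54, 3.61 and 3.32 in week 3 to 4 and at 5.15, 5.38 and 4.64 in animals 33, 43 and 52 (-1.57, standard error 0.20, adjusted p = 0.0376), and at 3.56, 3.72 and 3.59 in the controls. The groups did not overlap, and the levels are near the floor, so a limit of 6 on the highest group mean removed it. Mirlet7c-1 was called in 3 of 14 fits that left out 1 array, and without animal 29 or animal 60 0 genes were called by limma (694 and 966 at an unadjusted p under 0.05), while without animal 54 there were 42. At an unadjusted p under 0.05 there were 993 genes, 654 of them higher in week 3 to 4. Il6 was at 5.81, 8.43 and 8.49 in week 1 to 2, higher than the 3 joints of week 3 to 4 (-2.74, adjusted p = 0.76), and the growth factor gene Ptn differed by -1.09 and Chad by 1.18, none of them called. In the epidermal list 35 of 40 genes were higher at that level (median 2.22), again along the letter code, since all 3 arrays of week 1 to 2 carry the first, with list means of 6.04, 5.86 and 6.25 against 6.47 in animal 54.

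Between the declining joints and week 3 to 4, limma called 0 genes (0% of all), with 1223 at an unadjusted p under 0.05 and 6 called with array weights. The lowest adjusted p was 0.328, for Dusp12, and Slc44a1 (-1.91), Slitrk6 (-1.26) and Snora33 (-1.27) were lower in decline without passing. The contractile list had a median of 0.29 and the osteoclast list one of -0.22 in this comparison. Within the second letter code, which leaves animals 29 and 60, 0 genes were called and 362 had an unadjusted p under 0.05.

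**Figure D5:**
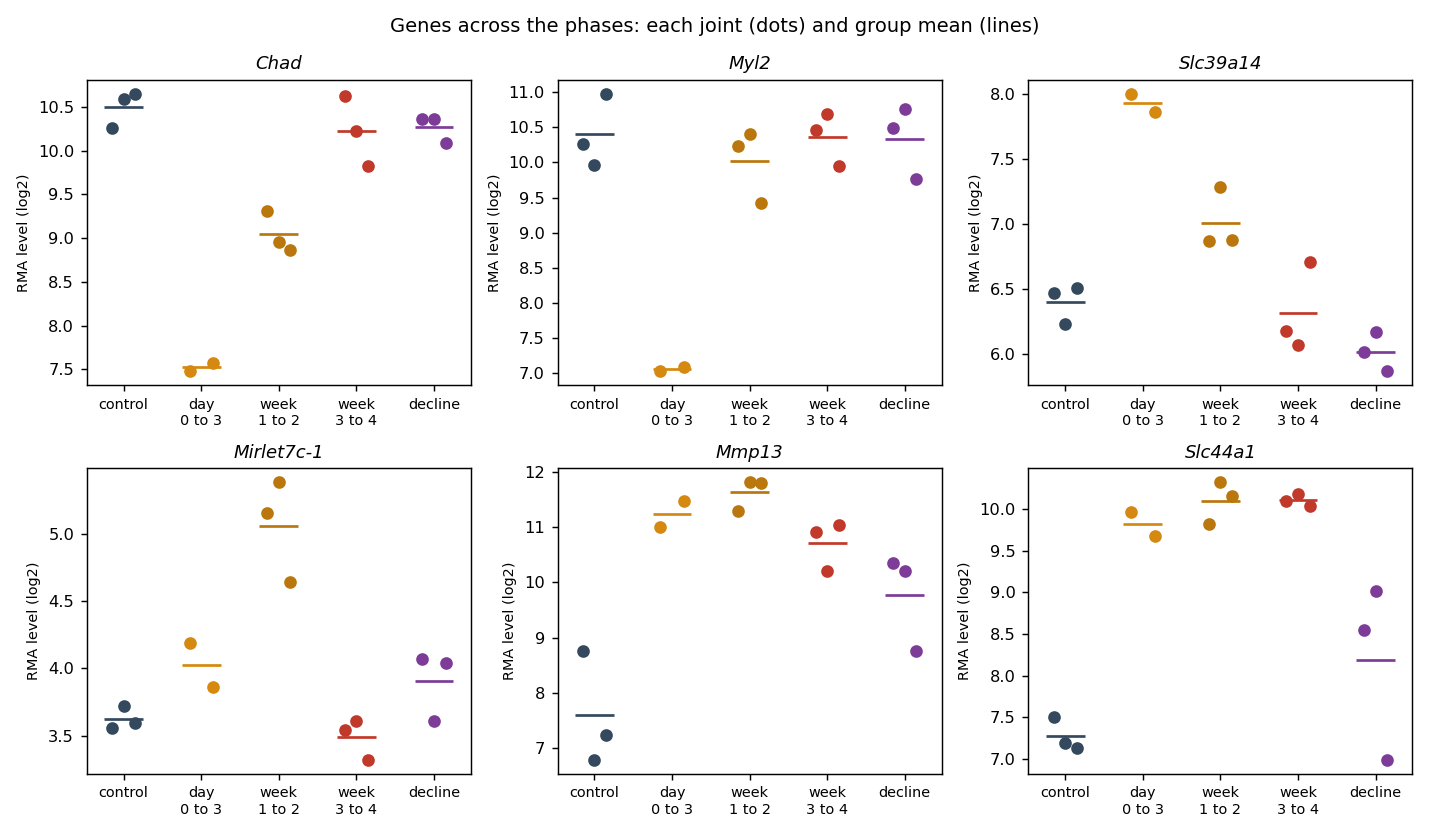
Log2 RMA levels of 6 genes in each joint (dots) with the group mean (line) over the phases; vertical axes differ between panels and do not start at 0. Chad, Myl2 and Slc39a14 lie near the controls in week 3 to 4 and far from them at day 0 to 3, Mirlet7c-1 is high in week 1 to 2, and Mmp13 and Slc44a1 are above the controls in all joints of the first 3 phases.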

How the data were processed

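Amplified RNA of 15 tarsal joints had been hybridised to Affymetrix Mouse Gene 1.0 ST arrays, 1 joint and 1 mouse per array. The authors processed the scans by RMA (background correction, quantile normalisation, probe summary; R 2.15 per the labels) and deposited log2 values, which span 1.56 to 14.26. The annotation build was not given in the sources used here. Probe sets that name a single gene were kept (21789 of 35556), and a gene with several was read from the one of highest mean, leaving 19938 genes. Without the array that failed quality control, limma 3.58.1 (R 4.3.3) fitted a mean per group over 14 arrays, with the spread shared by all groups. Genes whose p, adjusted by the method of Benjamini and Hochberg across every gene, was under 0.05 were called. An exact two-sided permutation of 3 joints against 3 cannot go below 0.1, so none was run. Arrays have no read depth, and their number limits the precision.

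The comparison, the 50 gene lists and the 10 lists from the tables of the paper were chosen with earlier results of these data known, and lists carry no test. Named genes are the 15 largest called rises and falls with non-overlapping groups, members of lists, the 10 of widest range among the arthritic joints, and the 10 leading genes each way against other phases. Rgs2, Pmepa1, Wls, Npy, Mir216a, Mir361 and genes named for another probe set were picked after their values were seen. The fit was tested on simulated data. Sequences are from RefSeq (GRCm38.p6). Figures used matplotlib 3.10.9 (Python 3.11.15). The alternatives varied the arrays, the spread model, the scaling, the limit on low signal (4 or 6), the handling of probe sets and the letter code, and the fit within the second letter code was chosen after seeing the data.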

Additional observations from a re-analysis of the deposited data

Results flagged for a closer look

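Chad, Myl2 and Slc39a14 differed between week 3 to 4 and day 0 to 3 by a test of that difference, by 2.70, 3.30 and -1.61 on the log2 scale, while week 3 to 4 lay near the controls for all 3. Mirlet7c-1 differed between week 3 to 4 and week 1 to 2 in the same way, by -1.57, at levels near the floor of the arrays.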

How the results depend on the processing

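Against control, 309 genes were called, 0 by limma with all 15 arrays (2502 at an unadjusted p under 0.05), 0 by an analysis of variance of the 2 groups (2637 unadjusted), 2 with only the 2 groups, 186 over all probe sets, 190 with a fold of at least 2 and 2596 with the letter code as a random block, for which the estimated correlation within codes was negative (-0.158) and the controls have no code. Leaving out 1 array gave 0 (without animal 60) to 1427 (without declining joint 10). The 656 genes at 2-fold were 1902 over all probe sets and 419 by the analysis of variance, and 426 (without animal 60) to 1220 (without control 1) with 1 array left out. Against day 0 to 3 the 3 calls became 0 with all 15 arrays (1361 unadjusted), 0 by the analysis of variance (1513 unadjusted), 440 with array weights, 10 with the letter code block and 7 with only the 2 groups, and 1 to 28 (without animal 54) with 1 array left out. Against week 1 to 2 the 1 call became 0 with 1 SD for every array, 0 over all probe sets, 0 by the analysis of variance, 0 at a limit of 6, 0 with only the 2 groups (842 to 2006 unadjusted over these 5) and 115 with array weights, and 0 to 42 (without animal 54) with 1 array left out. Decline against week 3 to 4 had 6 calls with array weights in place of 0. The causes were not tested. Of the called genes named in the text, 86 gave 2230 values under other settings, of which 947 lost the call, 1283 kept it and 0 changed direction. Settings that alter only the spread, or leave out a joint of another group, keep the change as it was. Direction could not turn in them, and the genes had been called on the same arrays, so kept directions are no independent evidence. No paired analysis was possible because the animals carry no replicate numbers that groups share. The 3 arrays per group and, for genes near the floor, the signal limit what can be seen.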
